A study of Mus musculus with 17 samples.

Results

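The MHC class II molecules and their loading factors were followed here across 17 mouse hearts as a family of 10 genes, taken by name from the 56748 genes in the count table. They are the classical chains *H2-Aa*, *H2-Ab1* and *H2-Eb1*, the peptide exchange factor H2-DM (*H2-DMa*, *H2-DMb1*, *H2-DMb2*), its partner H2-O (*H2-Oa*, *H2-Ob*), the invariant chain *Cd74* and the master regulator *Ciita*. Of these, 9 passed the filter on low counts, and *H2-Oa* did not. The 9 hMut hearts came from mice with 2 copies of the inducible *Polg* iMut allele and 1 Ckmm-cre transgene, in which Cre under the muscle creatine kinase promoter switches on the proofreading-deficient POLG D257A enzyme. That promoter is active in heart and skeletal muscle cells and is not directed at immune cells. The 8 Ctrl hearts are labelled as controls, with no genotype given in the labels, and all mice were 12 to 16 months old. Each library was made from the heart tissue of 1 animal, and the mtDNA mutation load of each heart was not used here.

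MHC class II molecules present peptides from the endosomal pathway to CD4+ T cells, and are made mainly by macrophages, dendritic cells and B cells, of which the heart holds resident populations and can recruit more. The α and β chains assemble on the invariant chain, whose remnant in the groove is exchanged for peptide by H2-DM, while H2-O holds H2-DM back, chiefly in B cells. Their genes share a promoter module bound by the RFX complex, CREB and NF-Y, and CIITA, which interferon-γ induces, is the coactivator that this platform recruits.

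Total counts per heart ranged from 32915159 to 46486964, and mtDNA-encoded genes took a share of them from 23.5% to 30.9% in Ctrl and from 15.9% to 23.0% in hMut. Levels are given as CPM, which are counts scaled to the same library size, here after TMM scaling for differences in composition. *Polg* itself lay between 27.1 and 47.2 CPM in Ctrl and between 47.0 and 65.1 CPM in hMut, with a log2 fold change of 0.74 (SE 0.10, adjusted p = 0.000448 in edgeR's quasi-likelihood test). The 6 cardiomyocyte markers, led by the myosin gene *Myh6* and the actin gene *Actc1* with Ctrl means of 14921 ± 1325 and 9874 ± 875 CPM (SD, n = 8), summed to 31497 to 39553 CPM in Ctrl and to 24606 to 38018 CPM in hMut. Some hearts stood apart for immune genes and are named wherever a value rests on them: hMut replicates 6 and 9, and Ctrl replicates 2 and 3.

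Of the 10 genes, 8 lie within 252 kb of chromosome 17 in GRCm39, in the order *H2-Oa* (34311314 to 34314208), *H2-DMa* (34338515 to 34358075), *H2-DMb2* (34362281 to 34370529), *H2-DMb1* (34372046 to 34379204), *H2-Ob* (34457877 to 34473388), *H2-Ab1* (34476663 to 34488393), *H2-Aa* (34501718 to 34506797) and *H2-Eb1* (34524841 to 34535648). *H2-Aa* is on the minus strand and the other members there are on the plus strand. *H2-DMb2* and *H2-DMb1* are neighbours 1516 bp apart, and 369 of the 1355 windows of 50 bases (27.2%) in the canonical *H2-DMb1* transcript also occur in *H2-DMb2*, so the split of reads between this pair is uncertain. In the canonical *H2-DMb2* transcript 431 of 1413 windows (30.5%) occurred in other genes, 369 of them in *H2-DMb1*. The genes sharing a window with *H2-DMb2* numbered 301, so its counts are uncertain beyond this pair as well. No window of that length in the canonical transcript of any other member occurred in another gene. *Ciita* lies on chromosome 16 (10297923 to 10346282, plus strand), where it overlaps *Dexi* on the other strand, and *H2-DMa* overlaps *Brd2* in the same way. The strand setting of the counting is not given in the sources used here, so reads of such overlapping pairs could not be told apart.

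The promoter module is known as an input of class II genes. Its letters are shown for that reason and because the neighbours *H2-DMb1* and *H2-DMb2* differ in it. RefSeq promoters (GRCm38.p6, from 250 bases before to 50 bases after the start site) were examined for 7 of the 10 genes. None was in hand for *H2-Ab1* or *Ciita*. *Cd74* was left out of this comparison, so the counts of genes with the motifs do not cover it. Capitals mark CNNGNAAC, which resembles the X box core of RFX, and ATTGG, the CCAAT box of NF-Y read on its other strand. Their starts had to lie 25 to 45 bases apart, and the members were searched on the gene's own strand only. These letters were chosen after the promoters had been read. Each window is printed 5′ to 3′ on the gene's own strand.
H2-Aa, chr17:34287861-34287913 (minus strand): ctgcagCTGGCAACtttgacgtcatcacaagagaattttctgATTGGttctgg
H2-Eb1, chr17:34305767-34305818 (plus strand): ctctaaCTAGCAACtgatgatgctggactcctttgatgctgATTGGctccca
H2-DMb1, chr17:34153088-34153140 (plus strand): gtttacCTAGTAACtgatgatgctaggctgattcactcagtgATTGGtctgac
H2-DMb2, chr17:34145117-34145169 (plus strand): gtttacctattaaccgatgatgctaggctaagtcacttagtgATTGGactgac
H2-Oa, chr17:34092294-34092346 (plus strand): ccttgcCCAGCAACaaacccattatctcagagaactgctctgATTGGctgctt
H2-Ob, chr17:34238809-34238858 (plus strand): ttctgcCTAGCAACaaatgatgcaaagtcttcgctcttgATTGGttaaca

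On the gene's own strand, both motifs were found in 5 of the 7 genes examined, with starts 33 to 36 bases apart. The first motif began at -97 to -79 from the start site. These 7 genes had 8 promoters. Of all 32851 promoters of the same length, 280 held both motifs (0.852%) on either strand, a wider search than that of the members. Since the letters were chosen after the promoters had been read, this contrast is not a test of the family. ATTGG alone, on either strand, was in 37.4% of all promoters. The promoters of *H2-DMa* held no such pair on the gene's own strand. In *H2-DMb2* the first motif was not matched: the windows of *H2-DMb1* and *H2-DMb2* differed at 6 of 53 positions, counted from 1 at the 5′ end with the *H2-DMb1* base first (G10T, T15C, G30A, T32G, C38T and T48A), and G10T falls on a letter that the motif fixes. A match is a description of these letters and not a binding site, and the lack of one concerns this window alone.

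In the Ctrl hearts the levels per kilobase of canonical transcript fell into tiers. *Cd74* had the highest median at 95.2 CPM per kb, followed by *H2-Aa* at 53.5, *H2-Ab1* at 43.8 and *H2-Eb1* at 35.1 CPM per kb. The exchange factor genes were far lower, at 4.204 CPM per kb for *H2-DMa* and 3.32 for *H2-DMb1*. Lowest were *H2-Ob* at 0.766, *H2-DMb2* at 0.717, *Ciita* at 0.490 and *H2-Oa* at 0.206 CPM per kb. Among neighbours in this order, the Ctrl ranges were separate between *H2-Eb1* and *H2-DMa* and overlapped in every other case. Within single hearts the order was tighter, since *Cd74* exceeded *H2-Aa*, *H2-Aa* exceeded *H2-Ab1*, and *H2-Ab1* exceeded *H2-Eb1* in 17 of 17 hearts. The order of the chains depends on the length used: with the gene lengths in the count table, which for *H2-Aa* are 3798 bp against 1128 bp of canonical transcript, *H2-Eb1* (30.7 CPM per kb) came before *H2-Ab1* (20.7) and *H2-Aa* (15.9), again in 17 of 17 hearts. *H2-DMb1* then came before *H2-DMa* (2.77 and 1.40 CPM per kb), so the order of these genes is not settled by these counts.

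*Cd74*, which chaperones the chains, was at 89.1 CPM in the lowest Ctrl heart, 136 at the median and 186 in the highest, and at 96.0, 120.3 and 1212 CPM in hMut. *H2-Aa*, the α chain of I-A, was at 39.1, 60.4 and 78.8 CPM in Ctrl (lowest, median and highest) and at 41.7, 53.5 and 522 CPM in hMut. For *H2-Ab1*, the β chain of I-A, the same values were 34.9, 53.1 and 70.6 CPM in Ctrl and 40.02, 48.3 and 519.8 CPM in hMut. In each of these genes 2 hMut hearts lay above every Ctrl heart, replicate 6 far above and replicate 9 by less, and the remaining 7 hMut hearts lay within the Ctrl range. *H2-Eb1*, the β chain of I-E, followed the same pattern, at 37.0, 59.6 and 74.3 CPM in Ctrl and 41.2, 52.7 and 548 CPM in hMut. The highest hMut value was that of replicate 6 in all 4 genes, 8.65 to 9.80 times the Ctrl median, while replicate 9 reached 240.5 CPM for *Cd74* and 87.5 CPM for *H2-Ab1*, and stood 1.65 to 1.77 times above the Ctrl median. The hMut medians of the 4 genes were 0.883 to 0.910 times the Ctrl medians. In bulk tissue, fewer cells of a type and less RNA per cell cannot be told apart.

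**Figure D1:**
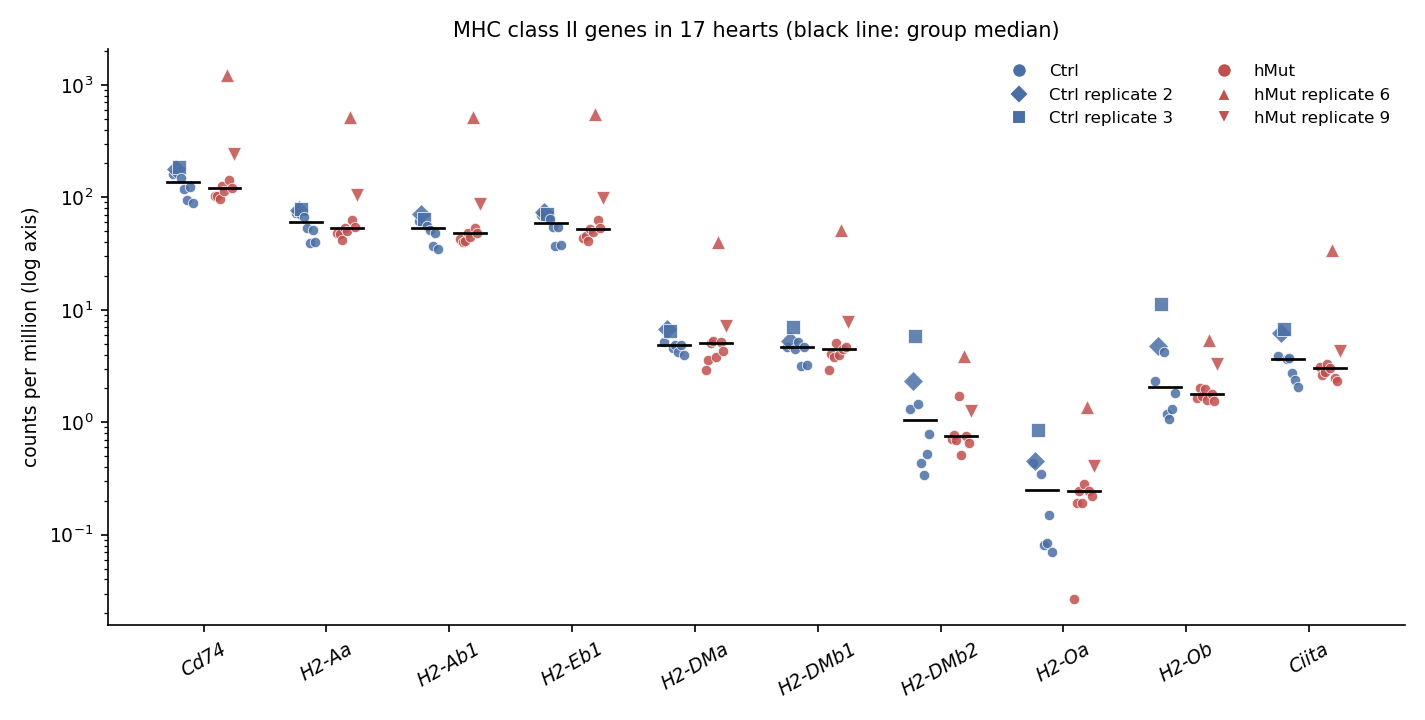
Level of each of the 10 genes in each heart, in CPM on a log axis, with Ctrl hearts in blue, hMut hearts in red and a black line at each group median. hMut replicate 6 (triangle) is the highest of the 17 hearts in 8 genes, and Ctrl replicate 3 (square) is the highest in *H2-DMb2* and *H2-Ob*.

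H2-DM, which edits the peptides bound by the classical molecules, is a dimer of the *H2-DMa* product with that of *H2-DMb1* or *H2-DMb2*. *H2-DMa* was at 3.99, 4.84 and 6.78 CPM in Ctrl (lowest, median and highest) and at 2.92, 5.08 and 40.3 CPM in hMut. The hMut hearts thus extended past the Ctrl range on both sides, with 3 below every Ctrl heart and 2 above. *H2-DMb1* was at 3.18, 4.66 and 7.07 CPM in Ctrl and at 2.92, 4.49 and 51.3 CPM in hMut, where replicate 6 was at 11.01 times the Ctrl median and at 6.55 times the next heart of all. *H2-DMb2* behaved differently. It was at 0.341, 1.05 and 5.80 CPM in Ctrl, a 17.04-fold range, and at 0.511, 0.761 and 3.86 CPM in hMut, and the highest value was that of Ctrl replicate 3, with 183 counts. All hMut hearts lay inside the Ctrl range for *H2-DMb2*.

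The product of the H2-O genes is known for restraining H2-DM. *H2-Ob* was at 1.08, 2.08 and 11.3 CPM in Ctrl (lowest, median and highest) and at 1.54, 1.79 and 5.38 CPM in hMut. Ctrl replicate 3 was again highest, at 5.42 times the Ctrl median, followed by hMut replicate 6, and all hMut hearts lay inside the Ctrl range. *H2-Oa* had 3 to 27 counts in the Ctrl hearts and 1 to 58 counts in the hMut hearts, close to the floor of 3 counts that was taken as the limit of detection. Its level was 0.0697, 0.249 and 0.856 CPM in Ctrl and 0.0271, 0.245 and 1.37 CPM in hMut, with the highest value in hMut replicate 6 and the second highest in Ctrl replicate 3.

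*Ciita* encodes the coactivator that the promoter platform recruits. Its level was 2.07, 3.66 and 6.69 CPM in Ctrl (lowest, median and highest) and 2.33, 3.01 and 33.8 CPM in hMut. Replicate 6 was at 9.23 times the Ctrl median, close to the ratios of the classical chains in that heart. It alone of the hMut hearts lay above every Ctrl heart, since replicate 9, at 4.31 CPM, was below Ctrl replicate 3 and Ctrl replicate 2 (6.21 CPM). *Ciita* has alternative promoters used by different cell types, which counts per gene do not separate.

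The comparison of the genotypes asks whether mtDNA mutations in cardiomyocytes change class II expression in the aged heart. None of the 9 tested genes was called at an adjusted p under 0.05, in a fit where 749 of 16195 genes were called (4.62%) and 564 were called as higher in hMut (3.48%). At the adjusted threshold the count was also 0 with DESeq2, which called 1524 genes in all, and with limma-voom, which called 2081. It was 0 at an unadjusted p under 0.05 in edgeR as well, a threshold for which the share of all genes is not given here. The log2 fold changes (hMut over Ctrl) were 0.87 for *Cd74* (SE 0.48, adjusted p = 0.255), 0.87 for *H2-Aa* (SE 0.48, adjusted p = 0.251), 0.97 for *H2-Ab1* (SE 0.50, adjusted p = 0.225) and 0.94 for *H2-Eb1* (SE 0.49, adjusted p = 0.233). Among the loading factors they were 0.76 for *H2-DMa* (SE 0.46, adjusted p = 0.295) and 1.06 for *H2-DMb1* (SE 0.53, adjusted p = 0.213). *Ciita* had a value of 0.72 (SE 0.54, adjusted p = 0.394). *H2-DMb2* at -0.40 (SE 0.54, adjusted p = 0.655) and *H2-Ob* at -0.58 (SE 0.43, adjusted p = 0.399) had the opposite sign. *H2-Oa* differed by 0.05 in log2(CPM + 0.5), with a two-sided exact permutation p = 0.843 over the 24310 splits of the hearts (n = 9 and 8). The median log2 fold change of the 9 genes was 0.87, beside 0.0023 over all tested genes.

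hMut replicate 6 set the sign of 7 of these values. Without it, all 9 log2 fold changes were negative, from -0.85 for *H2-DMb2* and -0.83 for *H2-Ob* to -0.03 for *H2-DMb1*, with *Ciita* at -0.38 (SE 0.22) and *Cd74* at -0.07 (SE 0.19). The smallest adjusted p of the 9 was then 0.247, for *H2-Ob*, the median was -0.07 beside -0.0041 over all genes, and 0 of 9 were called, where 497 of 16103 genes were (3.09%). *H2-Oa* differed by -0.11 (exact permutation p = 0.573, n = 8 and 8). With hMut replicates 6 and 9 left out together, *H2-Ob* and *Ciita* reached unadjusted p values of 0.033 and 0.0446 but adjusted p values of 0.223 and 0.256. The negative values of *H2-DMb2* and *H2-Ob* rested in part on control hearts. Without Ctrl replicates 2 and 3 they were 0.60 (SE 0.47) and 0.23 (SE 0.34). Without Ctrl replicate 3 alone *H2-DMb2* was at 0.26 and *H2-Ob* at -0.03. With hMut replicate 6 and Ctrl replicate 3 left out together both stayed negative. *H2-DMb2* was then at -0.20 (SE 0.37) and *H2-Ob* at -0.28 (SE 0.30). In hMut replicate 6, CPM was at least 2 times that of every other heart in 7 of the 9 tested members, which holds for 2.64% of all tested genes, and 21.1% of all tested genes had their highest value in that heart. Ctrl replicate 3 was highest in the other 2, as it was in 6.13% of all tested genes.

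**Figure D2:**
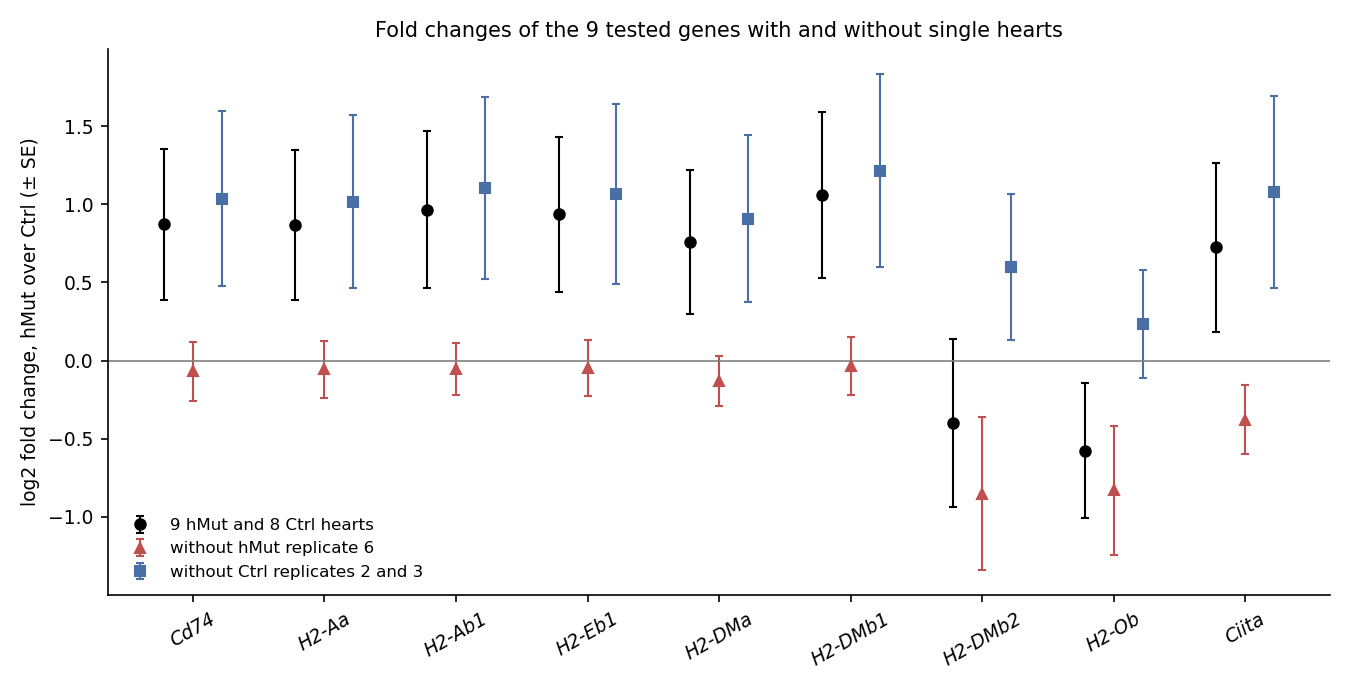
Log2 fold change of hMut over Ctrl for the 9 tested genes, with bars of 1 standard error, in all hearts (black circles), without hMut replicate 6 (red triangles) and without Ctrl replicates 2 and 3 (blue squares). The 7 positive values drop to between -0.38 and -0.03 without hMut replicate 6, and *H2-DMb2* and *H2-Ob* turn positive without the 2 Ctrl hearts.

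Ratios of counts within a heart do not depend on how libraries are scaled, and 9 were compared between the genotypes. The ratio of *H2-Ab1* to *H2-Aa* was 0.812, 0.895 and 0.948 in Ctrl (lowest, median and highest) and 0.839, 0.895 and 0.995 in hMut. *H2-Eb1* over *H2-Ab1* was between 1.01 and 1.18 in all 17 hearts, and *Cd74* over *H2-Ab1* between 2.32 and 2.91. The chains and their chaperone therefore kept nearly one proportion, varying by no more than 1.25-fold over hearts in which *H2-Ab1* itself ran from 34.9 to 519.8 CPM. In hMut replicate 6, where the summed CPM of the 10 genes was 2939 against a Ctrl range of 214 to 438, *Cd74* made up 41.3% of the sum, beside 40.4% to 43.3% in Ctrl. The regulator kept step less closely, as *Ciita* over *H2-Ab1* was 0.0496, 0.0692 and 0.105 in Ctrl and 0.0464, 0.0653 and 0.0722 in hMut, with 0.0650 in replicate 6.

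The ratios with *H2-DMb2*, *H2-Oa* and *H2-Ob* were far looser. *H2-Ob* over *H2-Ab1* was 0.0233, 0.0450 and 0.176 in Ctrl and 0.0103, 0.0376 and 0.0502 in hMut, a 17.01-fold spread over the 17 hearts, with Ctrl replicate 3 the highest and hMut replicate 6 the lowest. *H2-DMb2* over *H2-DMb1* ran from 0.0753 in hMut replicate 6 to 0.821 in Ctrl replicate 3, with medians of 0.264 in Ctrl and 0.1697 in hMut. By contrast *H2-DMb1* over *H2-DMa* stayed between 0.748 and 1.27. None of the 9 ratios passed the threshold between the genotypes. The differences in mean log2 ratio (hMut minus Ctrl) lay between -0.57 for *H2-Ob* over *H2-Ab1* (exact permutation p = 0.187, adjusted p = 0.478) and 0.39 for *H2-Oa* over *H2-Ob* (exact permutation p = 0.349, adjusted p = 0.478), and the lowest two-sided p was 0.147, for *Ciita* over *H2-Ab1* (exact permutation, adjusted p = 0.478, difference -0.22).

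**Figure D3:**
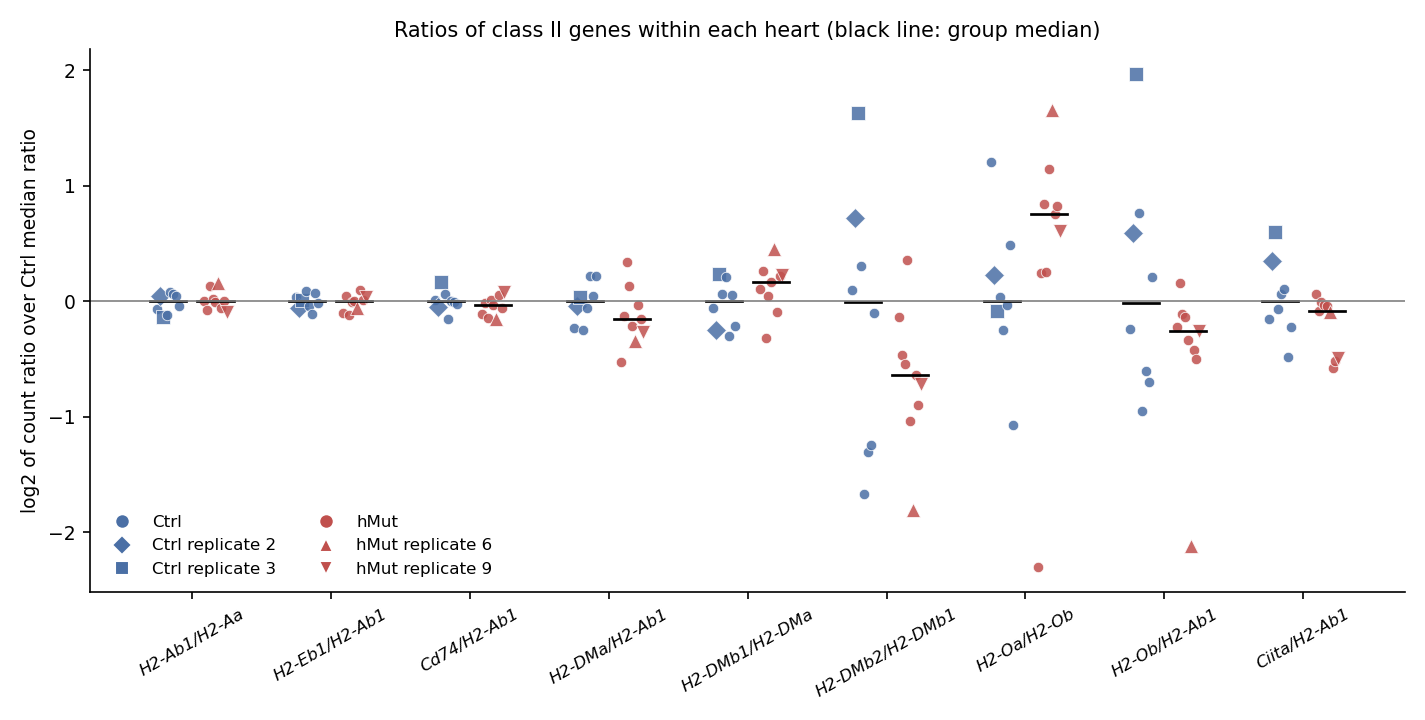
Ratio of counts of each gene pair within each heart, as the log2 of its quotient with the Ctrl median, with Ctrl hearts in blue, hMut hearts in red and a black line at each group median. Points of the first 3 ratios lie close to 0 in all 17 hearts, while *H2-DMb2* over *H2-DMb1* and *H2-Ob* over *H2-Ab1* run from Ctrl replicate 3 at the top to hMut replicate 6 at the bottom.

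Along the class II region, genes that were far higher in hMut replicate 6 alternate with those that were highest or next to highest in Ctrl replicate 3. *H2-Ob* ends 3274 bp before *H2-Ab1* begins, yet in hMut replicate 6 *H2-Ab1* was at 9.80 and *H2-Ob* at 2.59 times the Ctrl median, and in Ctrl replicate 3 they were at 1.25 and 6.22 times the median of the other 7 Ctrl hearts. The adjacent *H2-DMb2* and *H2-DMb1* were at 3.68 and 11.01 times in hMut replicate 6 and at 7.35 and 1.53 times in Ctrl replicate 3. The region also holds genes of the class I pathway, and in hMut replicate 6 the peptide transporter subunit *Tap1* was at 9.45 times and the immunoproteasome subunit *Psmb8* at 7.40 times the Ctrl median, but the partner subunit *Tap2* at 2.91 times, and the chromatin reader *Brd2* between *H2-Oa* and *H2-DMa* was at 1.18 times. *H2-Eb2*, a further β chain gene that failed the filter on low counts, was at 4.54 times in hMut replicate 6 and at 7.10 times in Ctrl replicate 3.

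**Figure D4:**
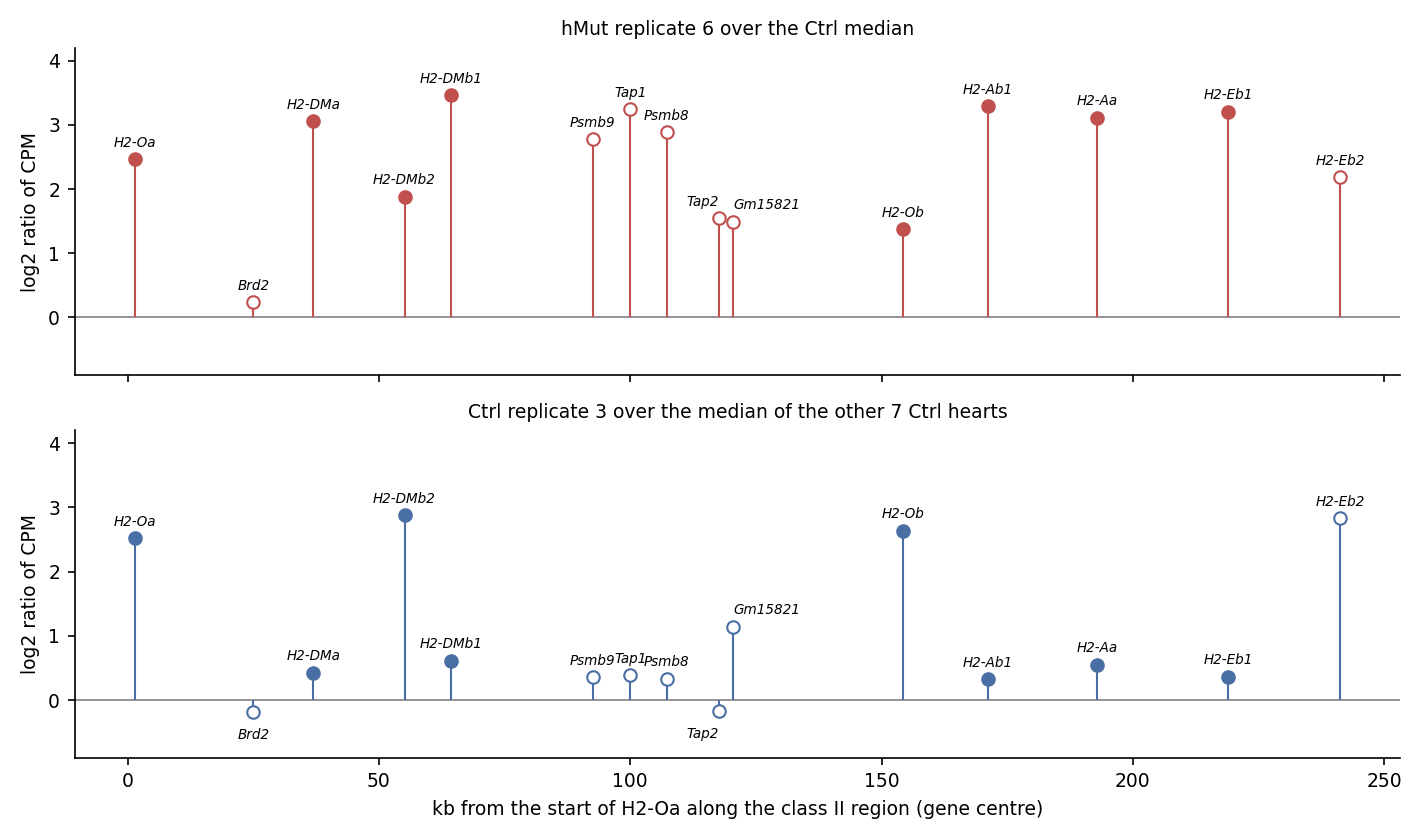
Log2 ratio of CPM along the class II region, plotted by distance in kb from the start of *H2-Oa*, for hMut replicate 6 over the Ctrl median (top) and Ctrl replicate 3 over the median of the other 7 Ctrl hearts (bottom), with members as filled and other genes as open points. In the lower panel *H2-Oa*, *H2-DMb2*, *H2-Ob* and *H2-Eb2* lie between 2.52 and 2.88, and the other 5 members of the region lie between 0.33 and 0.61.

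Of 42 other genes of the class II pathway, in 6 lists, 38 were tested, 2 were higher in hMut and 0 were lower, a share close to that of all tested genes (4.62% called, 3.48% called as higher). Both are endosomal proteases of the 10 genes for antigen processing, and they are the 2 of that list whose highest value was not in hMut replicate 6. *Ctsl*, which cleaves the invariant chain in thymic epithelium and other cells, was at 147, 161 and 183 CPM in Ctrl (lowest, median and highest) and at 173, 228 and 286 CPM in hMut, with 8 of 9 hMut hearts above every Ctrl heart. Its log2 fold change was 0.46 (SE 0.09, adjusted p = 0.00539), and 0.47 without hMut replicate 6 (adjusted p = 0.00669). *Ctsd*, an aspartic protease, was at 499, 539 and 608 CPM in Ctrl and at 578, 604 and 682 CPM in hMut, with a log2 fold change of 0.18 (SE 0.05, adjusted p = 0.0441) and stayed at 0.18 without hMut replicate 6 (adjusted p = 0.0647). The call for *Ctsd* was made under 13 of 32 alternatives, and leaving out any of several other hearts also ended it. *Ctss*, which trims the invariant chain in professional presenting cells, was highest in hMut replicate 6 at 219.9 CPM and was not called (log2 fold change 1.19, SE 0.47, adjusted p = 0.132), with 0.34 without that heart. The median log2 fold change of the list was 0.18, and 0.07 without hMut replicate 6.

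No gene of the platform on which CIITA acts was called. Over these 10 regulators the median log2 fold change was -0.07, and the summed level was 357 to 389 CPM in Ctrl and 340 to 362 CPM in hMut, with 349.9 CPM in replicate 6, and none was highest in that heart. The RFX subunits *Rfx5*, *Rfxank* and *Rfxap* had log2 fold changes of -0.17 (SE 0.11), 0.05 (SE 0.07) and -0.08 (SE 0.07), and the NF-Y subunits *Nfya*, *Nfyb* and *Nfyc* had 0.10 (SE 0.07), -0.03 (SE 0.06) and -0.09 (SE 0.05), with adjusted p values between 0.258 and 0.749. *Ifng*, the gene of the cytokine that induces *Ciita*, had 54 counts in hMut replicate 6, at 1.28 CPM, and was at 0.0632 CPM or less in the Ctrl hearts, which is below the floor of 3 counts. None of the 7 tested genes of interferon-γ input was called, and 6 of all 8 were highest in hMut replicate 6. *H2-Ea*, the α chain of I-E, had a single count, in 1 of the 17 hearts; mice of the C57BL/6 background, on which these animals were bred, are known to lack its expression. The lists for class II turnover (5 tested) and for partners at the T cell contact (6 tested) held 0 called genes, with median log2 fold changes of 0.24 and 0.61 that were 0.11 and 0.13 without hMut replicate 6, and all 6 contact partners, such as the costimulatory ligand *Cd86* at 18.3 CPM, were highest in hMut replicate 6.

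Markers of the cells that make class II moved with these values, and their part in them was not tested. The summed level of 10 macrophage markers was 257 to 369 CPM in Ctrl and 320 to 1157 CPM in hMut, with 1157 CPM in replicate 6 and 618 CPM in replicate 9, and 8 of the 10 were highest in replicate 6. *Lyz2* and *C1qa* reached 657 and 159.9 CPM there. Markers used for resident macrophages did not move together in that heart. *Lyve1* at 7.65 CPM was below every Ctrl heart and *Cd163* at 11.6 CPM was inside their range. *Mrc1* went the other way, at 56.1 CPM against at most 35.7 CPM in Ctrl. The 8 dendritic cell markers summed to 25.2 to 38.7 CPM in Ctrl and to 81.7 CPM in hMut replicate 6, where 6 of them were highest. *Clec9a*, of the cross-presenting subset, was at 11.3 CPM there, and *Zbtb46*, which endothelial cells also express, was at 20.4 CPM, close to its Ctrl mean of 19.98 ± 3.53 CPM (SD, n = 8). The 8 T cell markers summed to 2.38 to 12.3 CPM in Ctrl, to 8.86 CPM in hMut replicate 9 and to 85.0 CPM in hMut replicate 6, with *Cd8a* at 25.9 and *Cd4* at 9.33 CPM, and all 8 were highest in that heart.

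B cell markers moved with the other pattern. Their summed level, over 10 genes, was 11.6 to 208 CPM in Ctrl and 17.7 to 64.9 CPM in hMut, and 9 of the 10 were highest in Ctrl replicate 3, including *Ighm* at 123 CPM. Ctrl replicate 2, at 71.9 CPM, had the second highest sum, and hMut replicate 6 the highest sum of the hMut hearts. *Blk* was the exception among the 10, with its highest value, 12.7 CPM, in hMut replicate 6. The sum of the 4 plasma cell markers was also highest in Ctrl replicate 3, at 99.8 CPM, of which *Jchain* made up 21.2, *Xbp1* 65.7 and *Sdc1* 11.8 CPM, and lay between 65.6 and 82.0 CPM in the other hearts. The 6 genes of lymph node stroma and follicle summed to 34.5 CPM there, close to hMut replicate 6 at 32.9 CPM, where the B cell chemokine *Cxcl13* alone was at 23.1 CPM (adjusted p = 0.0563 over the genotypes). Of the thymus genes, *Rag2* and *Ptcra* were at 0 counts in every heart, *Dntt* had at most 3 counts and *Rag1* at most 4. None of the markers of macrophages, dendritic cells, B cells, T cells or plasma cells was called. *Ccl21a*, a lymphatic chemokine, was lower in hMut (log2 fold change -0.79, SE 0.22, adjusted p = 0.0466), as was *Cd1d1* (-0.43, SE 0.10, adjusted p = 0.0169), and the endothelial receptor *Kdr* was higher (0.39, SE 0.10, adjusted p = 0.0407), while *Cdh5* of the same list was not called (0.15, adjusted p = 0.166). Without hMut replicate 6 the value of *Ccl21a* was about as large, at -0.73, with an adjusted p of 0.0707.

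**Figure D5:**
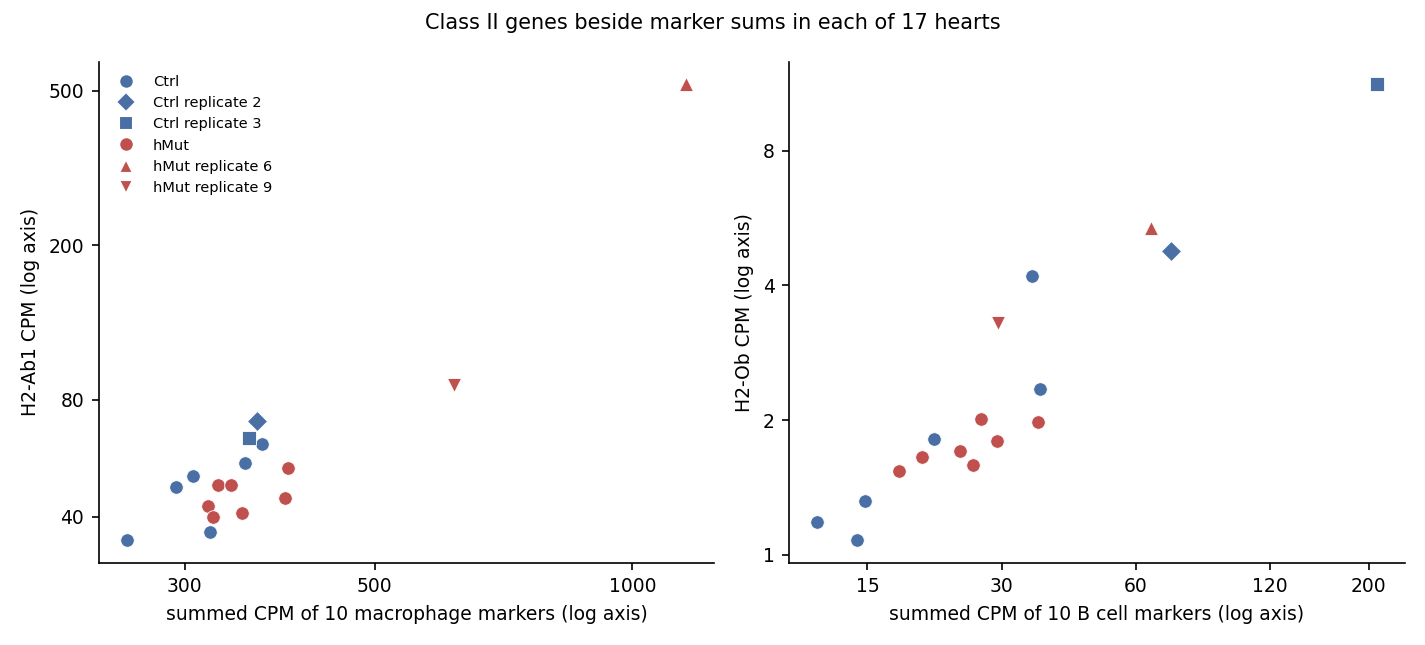
*H2-Ab1* beside the summed CPM of 10 macrophage markers (left) and *H2-Ob* beside the summed CPM of 10 B cell markers (right), 1 point per heart on log axes, with Ctrl in blue and hMut in red. hMut replicate 6 is at the far end of the left panel, at 1157 and 519.8 CPM, and Ctrl replicate 3 at the far end of the right panel, at 208 and 11.3 CPM.

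The likeness of patterns over hearts, as Spearman's ρ of CPM over the 17 hearts, which share their depth and scaling, set *H2-Ob* and *H2-DMb2* apart from the other tested members. *H2-Ab1* was closest to *H2-Aa* (ρ = 0.985), *Cd74* (0.978) and *H2-Eb1* (0.973), then to *H2-DMb1* (0.853), *H2-DMa* (0.836) and *Ciita* (0.799), and least close to *H2-Ob* (0.669) and *H2-DMb2* (0.647). *H2-Ob* was closest to *H2-DMb2* (ρ = 0.958) and had values of 0.517 to 0.708 with the other tested members. Among genes outside the family, those most like *H2-Ab1* were *Arhgap17* (ρ = 0.941), *Myo1g* (0.934), *Naip5* (0.924), *Limd2* (0.922) and *Il1rn* (0.919), and those most like *H2-Ob* were *Gm27003* (0.917), the immunoglobulin genes *Ighm* and *Igkc* (0.909 each), *Map3k1* (0.907) and *Fcrl1* (0.904). Without hMut replicate 6 these 10 values ranged from 0.891 to 0.929 over 16 hearts.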

How the data were processed

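Total RNA of 17 hearts was enriched for poly(A) RNA and sequenced, 1 library per mouse. The authors deposited raw counts per gene, made with featureCounts 2.0.6 from HISAT2 2.2.1 alignments to GRCm39 after a fastp filter. The strand setting and the treatment of reads with several matches are not given in the sources used here. Counts were filtered with filterByExpr (16195 genes kept), scaled by TMM and tested with edgeR 4.0.16 (quasi-likelihood, genotype as the only term, Benjamini-Hochberg adjustment over all tested genes) in R 4.3.3. Every adjusted p without another name comes from this fit, and its SE is derived from the test statistic. DESeq2 1.42.0 and limma 3.58.1 served as alternatives. *H2-Oa* and the ratios of counts (plus 0.5) were compared by exact permutation over the hearts, with adjustment over the 9 ratios. Depth was 32915159 to 46486964 counts per heart. The fits were tested on simulated data.

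Members and lists were chosen with earlier results of these data known. Text names all members, any called gene of a list, the 2 genes of each marker list with the highest mean CPM over all 17 hearts (a mean that hMut replicate 6 raises, so that *Cd8a*, *C1qa* and *Cxcl13* are not among the top 2 in Ctrl alone), *H2-Ea*, *Ifng*, the RFX and NF-Y genes and the 5 genes most like *H2-Ab1* and *H2-Ob*. *Ctss*, *Cd86*, *Lyve1*, *Cd163*, *Mrc1*, *Jchain*, *Rag1*, *Rag2*, *Ptcra*, *H2-Eb2*, *Tap1*, *Tap2*, *Psmb8* and *Brd2* were chosen after their values were seen, as were the hearts named as standing apart. Sex is not given in the labels and entered 1 alternative as read from the counts.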

Additional observations from a re-analysis of the deposited data

Results flagged for a closer look

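Within each genotype, the gap between the most extreme heart and its nearest neighbour was divided by the whole range of the group and compared with Dixon's 95% critical value. Of 38 groups tested (10 genes and 9 ratios in 2 genotypes), 9 were above it, where chance gives about 1 in 20. hMut replicate 6 stood far above the other hMut hearts in the log2 CPM of *H2-Aa* (0.637), *H2-Ab1* (0.695), *H2-Eb1* (0.663), *H2-DMa* (0.659), *H2-DMb1* (0.658), *Cd74* (0.638) and *Ciita* (0.773), and far below them in the log2 ratio of *H2-Ob* to *H2-Ab1* (0.713). These 8 values come from 1 library and are not independent of each other. hMut replicate 1 stood below the other hMut hearts in the log2 ratio of *H2-Oa* to *H2-Ob* (0.607), which rests on a single *H2-Oa* count in that heart. No Ctrl group was above the critical value, although Ctrl replicate 3 was the highest heart for *H2-DMb2* and *H2-Ob*.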

How the results depend on the processing

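None of the 287 values of the members under 32 alternatives passed an adjusted p of 0.05 (lowest 0.149), nor did any of 207 ratio values (lowest adjusted p 0.183). The signs were less stable. DESeq2 gave log2 fold changes of -0.0598 for *H2-Aa*, -0.0571 for *H2-Ab1*, -0.0526 for *H2-Eb1*, -0.12 for *H2-DMa*, -0.0405 for *H2-DMb1*, -0.0728 for *Cd74* and -0.37 for *Ciita*. By default it replaces outlying counts, here 7 counts of members, all in hMut replicate 6, and without that replacement, an alternative chosen after seeing the data, these 7 values were 0.71 to 1.05. limma-voom with quality weights gave, in the same order, -0.0615, -0.0476, -0.0537, -0.0878, -0.0029, -0.0834 and -0.18. Differences in medians, beside the exact rank-sum test, were -0.17 for *H2-Aa*, -0.13 for *H2-Ab1*, -0.17 for *H2-Eb1*, -0.0526 for *H2-DMb1*, -0.17 for *Cd74*, -0.28 for *Ciita* and 0.0052 for *H2-Eb1* over *H2-Ab1*.

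Without hMut replicates 6 and 9 the values were -0.23 for *H2-Aa*, -0.21 for *H2-Ab1*, -0.22 for *H2-Eb1*, -0.25 for *H2-DMa*, -0.19 for *H2-DMb1*, -0.25 for *Cd74*, -0.47 for *Ciita* and -0.15 for *H2-Oa*. Without Ctrl replicates 2 and 3 they were 0.60 for *H2-DMb2* and 0.23 for *H2-Ob*. Without hMut replicate 6 and Ctrl replicate 3 together, also chosen after seeing the data, 3 of the 9 tested members were positive and 6 negative. The values were 0.0103 for *H2-Aa*, 0.0710 for *H2-DMb1*, 0.0059 for *Cd74*, -0.0081 for *H2-Ab1*, -0.0034 for *H2-Eb1*, -0.0740 for *H2-DMa* and -0.22 for *Ciita*. The ratios of *H2-Ab1* to *H2-Aa* and of *H2-Eb1* to *H2-Ab1* were then -0.0103 and 0.00035. Leaving out each heart in turn gave -0.0557 to 0.98 for *H2-Aa*, -0.0525 to 1.07 for *H2-Ab1*, -0.0498 to 1.04 for *H2-Eb1*, -0.13 to 0.87 for *H2-DMa*, -0.0343 to 1.18 for *H2-DMb1*, -0.0687 to 0.98 for *Cd74*, -0.38 to 0.88 for *Ciita*, -0.85 to 0.26 for *H2-DMb2*, -0.83 to -0.03 for *H2-Ob*, -0.11 to 0.16 for *H2-Oa* and -0.0237 to 0.0065 for *H2-Eb1* over *H2-Ab1*. The negative ends belong to hMut replicate 6, except for *H2-Eb1* over *H2-Ab1*, and the positive ends of *H2-DMb2*, *H2-Ob*, *H2-Oa* and *Ciita* to Ctrl replicate 3.

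The count of all genes called, 749 as reported, was 1524 with DESeq2 (1540 without replacing counts), 2081 with limma-voom, 463 with no filter, 431 without hMut replicates 6 and 9, 373 without Ctrl replicates 2 and 3, 475 without hMut replicate 6 and Ctrl replicate 3, and 395 (without hMut replicate 5) to 1792 (without hMut replicate 2) when single hearts were left out. The count of other class II pathway genes called, 2 as reported, was 4 with DESeq2 and limma-voom, 1 with no filter, upper-quartile factors or sex as a covariate and without each of the 3 pairs of hearts above, and 1 to 5 when single hearts were left out. *Ctsl* was called under all 32 alternatives and *Ctsd* under 13.

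The replicate numbers of the labels did not pair the hearts, since the correlation of deviations of same-numbered hearts was -0.225 to 0.339 and 1 of 8 Ctrl hearts correlated best with its own number. A replicate block over replicates 1 to 8 left 185 genes called, 1 of them in the pathway, and 0 members, with *Ciita* at -0.0255 and *H2-Ab1* at 0.12. Depth limits *H2-Oa*, with 1 to 58 counts, and *H2-DMb2*, with at most 183.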
